A study of Sus scrofa with 10 samples.

Results

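The 519 loci described here are the annotated long noncoding RNA and pseudogene loci of the porcine ovary, chosen from the 43499 loci of the deposited expression table by their annotated type. A locus was a member when its type was given, was not protein-coding and was not a small nuclear, small nucleolar, Cajal body, micro, ribosomal, Y or miscellaneous RNA or a ribozyme. By type they were 306 long intergenic noncoding RNA (lincRNA) loci, 116 pseudogenes, 63 T cell receptor variable segments (TR_V_gene), 22 mitochondrial tRNAs (Mt_tRNA), 7 immunoglobulin variable segments (IG_V_gene), 3 T cell receptor joining segments (TR_J_gene) and 2 small RNAs (sRNA). Ovaries came from 10 gilts, which are young female pigs, of the same genetic background, and surface follicles had been removed. All gilts took 20 mg of altrenogest, a progestin that synchronizes the cycle, daily for 18 days from 210 days of age. After 2 days of withdrawal, the 5 gilts of the rpFSH treatment group were injected with 1000 IU of recombinant pig follicle-stimulating hormone made in CHO cells, and the 5 gilts of the control group with saline. Ovaries were collected at 234 days of age. Whole ovary pieces were sequenced, so fewer cells of a type and less RNA per cell cannot be told apart.

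A lincRNA is a transcript longer than a small RNA, often spliced, that is read from between protein-coding genes and is not known to be translated. Many are kept in the nucleus, are made at low levels and are restricted to few cell types, and some are the precursors of microRNAs. A pseudogene is a gene copy that an annotation holds to be disabled, often a retrocopy made from a spliced mRNA, and its reads are hard to separate from those of the intact gene. Variable and joining segments are the germline pieces that B and T cells join by recombination to make antigen receptors, so their RNA marks lymphocytes.

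The 10 libraries held 64873797 to 75114003 counts, and 3 counts, the limit that a count of 0 allows, stood for 0.0399 to 0.0462 CPM, that is, counts scaled to a library total of 1000000. Markers of granulosa cells, theca, oocytes and smooth muscle were present in every gilt. The summed FPKM of 8 ciliated epithelium markers, which are not ovarian stroma genes, was 42.4 in control 2 and 88.9 in control 5. It was 9.99 to 10.9 in the other controls and 5.85 to 9.91 in the rpFSH gilts, so the groups did not overlap. Between the groups the exact permutation p was 0.00794, which groups that do not overlap always give. The summed luteal markers were 2653 FPKM in control 2, 1560 in rpFSH 1 and 379 in rpFSH 4, against 23.3 to 74.1 in the other gilts.

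The annotation and the RefSeq entries of the same build, Sscrofa11.1, often classed a locus differently. Of the 116 pseudogene loci, 51 matched a RefSeq protein-coding gene, either by the NCBI gene number in their description or by overlap of at least 50% of both spans. Among the lincRNA loci, 21 of 306 did so, and 82 overlapped an entry that RefSeq also calls a long noncoding RNA. Of the 51 pseudogene loci, 49 matched by overlap. LDHB is counted by its number only and lies where RefSeq also has a pseudogene. Genes that RefSeq holds to be protein-coding thus stand in the pseudogene class, among them FOXL2, JUND, CLDN3, HPS6, BLOC1S3, NHLRC1 and NAP1L5. Of the pseudogene loci, 23 of the 48 with enough counts to be tested, LDHB included, matched a protein-coding entry by number or overlap. Their median level was 1.303 FPKM (a read level scaled for length and depth), against 1.08 FPKM for the other 25.

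Most lincRNA loci stood alone. In all, 226 of 306, or 73.9%, lay more than 10 kb from any protein-coding locus of the table, 71 lay within 10 kb of one, and 9 overlapped one on the opposite strand. Of the pseudogenes, 68 of 116 lay more than 10 kb away. The receptor segments did not, since 35 of the 63 TR_V_gene loci, all 3 TR_J_gene loci and 5 of the 7 IG_V_gene loci overlapped a protein-coding locus on the same strand. Counting by strand is not stated in the sources used here, so reads of overlapping loci may have been shared.

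Few members reached the level of a typical mRNA. A mean count of at least 10 over the 10 gilts, the limit for testing, was reached by 198 of 519 members, or 38.2%, against 76.9% of the 19972 protein-coding loci. The 198 were 145 lincRNAs, 48 pseudogenes, 3 IG_V_gene loci, 1 TR_V_gene locus and 1 sRNA. Of the 321 others, 111 were at 0 in every gilt and 210 had reads in some gilt, with a mean count of 9.9 at most.

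Within every gilt, the median lincRNA was lower than the median protein-coding locus. Over loci with more than 3 counts in that gilt, the lincRNA median was 0.233 to 0.375 FPKM and the protein-coding median 2.21 to 2.52 FPKM. On the log2 scale the lincRNAs were lower by a difference of -3.10 ± 0.25 (SD, n = 10), in 10 of 10 gilts (exact two-sided sign-flip permutation p = 0.00195, the smallest that 10 gilts allow). The pseudogene median was 0.494 to 1.07 FPKM, a log2 difference of -1.84 ± 0.40 from protein-coding loci (SD, n = 10, lower in 10 of 10 gilts, exact permutation p = 0.00195). Of the tested loci, 20.0% of lincRNAs, 60.4% of pseudogenes and 73.6% of protein-coding loci had a mean above 1 FPKM.

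**Figure D1:**
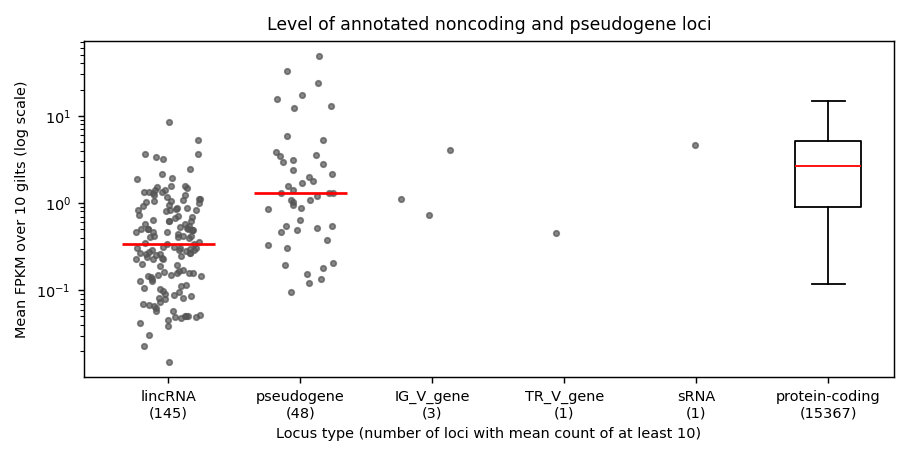
Mean FPKM over the 10 gilts (log axis) of every member with a mean count of at least 10, by annotated type, with 1 point per locus and a red line at the median. The box gives the quartiles, median and 5th to 95th percentiles of 15367 protein-coding loci. The lincRNA median of 0.338 FPKM lies below the protein-coding median of 2.65 FPKM, and single pseudogene-class loci reach 48.5 FPKM.

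A single locus held many of the lincRNA counts. ENSSSCG00000034679;ssc-mir-125b-2, at chr13:181303301-181928001 on the minus strand, took 35.3% of all counts of the 519 members and 44.5% of those of lincRNAs. These shares are not scaled for length, and the locus spans 624701 bp against a median of 35586 bp over the lincRNA loci. It carries the porcine miR-125b-2 name. RefSeq places MIRLET7C at chr13:181303209-181303302, which only just reaches its low-coordinate end, and MIR99A at chr13:181302483-181302562, which lies outside it. The microRNAs miR-99a, let-7c and miR-125b-2 are in mammals read from a shared noncoding host transcript. Whether this locus is that host was not tested. The level of the locus was 5.93, 2.29, 7.36, 3.83 and 4.01 FPKM in control 1 to 5 and 2.90, 3.28, 13.0, 3.22 and 7.57 FPKM in rpFSH 1 to 5. The groups overlapped, with the highest value in rpFSH 3 and the lowest in control 2. The edgeR log2 change was 0.38 ± 0.46 (SE, adjusted p = 0.999).

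By level, the lincRNA with the highest mean was ENSSSCG00000036379, a locus of 11 assembled transcripts at chr3:21636330-21650802. It reached 11.8, 7.16, 19.7, 6.25 and 5.69 FPKM in the control gilts and 7.78, 5.19, 3.23, 8.23 and 9.93 FPKM in the rpFSH gilts. The log2 change of -0.52 ± 0.40 (SE) did not pass the edgeR test (adjusted p = 0.985). ENSSSCG00000040251, at chr16:17952366-17988873, lies on the opposite strand to PDZD2, a protein with several PDZ domains. It ran from 1.68 FPKM in control 5 to 9.95 FPKM in rpFSH 1, and its log2 change was 0.35 ± 0.55 (SE, edgeR adjusted p = 0.999). Across the 10 gilts its level followed that of PDZD2, with Pearson r = 0.96 and Spearman rho = 0.90 on log2 (FPKM + 1), and both come from the same libraries and may share reads.

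Other lincRNAs of the upper levels lay beside transcription factor genes, and these were chosen for mention after their values were seen. ENSSSCG00000039279, at chr6:107274359-107282850, overlaps GATA6 on the opposite strand. GATA6 is a zinc finger factor of granulosa, theca and luteal cells. The lincRNA ranged from 1.27 FPKM in rpFSH 3 to 7.10 FPKM in control 4 and had r = 0.49 with GATA6. ENSSSCG00000036104 starts 1197 bp from NR2F1, an orphan nuclear receptor gene, on the opposite strand. Its levels were close together, at 1.04 to 2.11 FPKM, and its r with NR2F1 was 0.81. Over all tested pairs, the median r with the nearest tested protein-coding locus was 0.35 for the 53 pairs within 10 kb, 0.33 for the 17 pairs that overlap on opposite strands, -0.12 for the 4 pairs that overlap on the same strand and 0.26 for the 93 pairs farther apart. These correlations over 10 gilts describe these libraries and carry no test.

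The highest pseudogene-class loci lay in the histone gene region of chromosome 7. Histones package DNA, and their replication-dependent mRNAs, made in dividing cells, end in a stem loop and mostly lack a poly(A) tail. The labels describe poly(A) selection and the methods rRNA removal, and which was used bears on such transcripts. Within 1 stretch of chr7:20725431-21621332, 7 pseudogene loci were annotated and 6 could be tested. ENSSSCG00000037565, described as a histone H1.2-like protein and protein-coding in RefSeq, had the highest level of all members, 51.5 ± 23.8 FPKM (SD, n = 5) in the control group and 45.5 ± 11.5 FPKM in the rpFSH treatment group. Next to it, ENSSSCG00000035089, a pseudogene in RefSeq too, had 65.5, 4.96, 39.3, 43.4 and 21.3 FPKM in control 1 to 5 and 45.6, 46.7, 9.56, 14.4 and 33.2 FPKM in rpFSH 1 to 5.

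The histone loci varied together from gilt to gilt. Among 5 of the 6, all but the histone H4 locus ENSSSCG00000036231, the 10 pairwise correlations over the gilts were 0.71 to 0.94. Their summed level, H4 locus included, was highest in control 1 at 239.9 FPKM and lowest in control 2 at 39.7 FPKM. The 23 protein-coding loci described as histones in the same stretch were also highest in control 1, at 1282 FPKM, and lowest in control 2, at 266.0 FPKM. The H4 locus stood apart, at 28.3 FPKM in rpFSH 3 and 22.0 FPKM in rpFSH 5 against 3.60 FPKM at most in the other 8 gilts. Its log2 change of 3.19 ± 1.56 (SE) had an edgeR adjusted p of 0.872. Histone genes are near-identical, so the division of reads among them is uncertain. None of the 6 passed the limits of the study, an unadjusted P under 0.05 and a log2 change above 1 or below -1, which 3.42% of all tested loci passed, and the other 5 had log2 changes of -0.84 to -0.13.

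**Figure D2:**
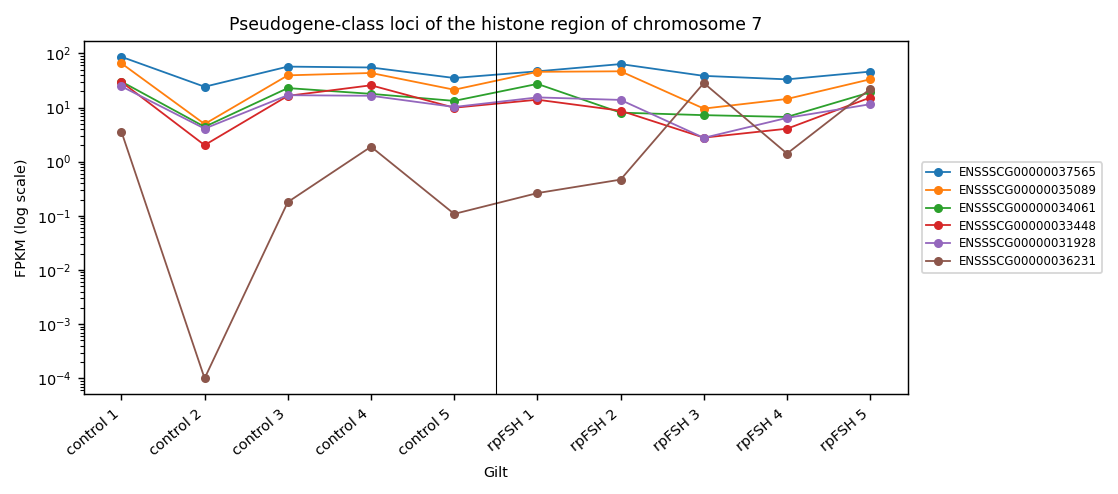
FPKM (log axis) of the 6 tested pseudogene-class loci of the chromosome 7 histone region in each gilt, with lines joining the values of 1 locus and a vertical line between the control and rpFSH gilts. Of these loci, 5 share a low in control 2 or rpFSH 3 and a high in control 1, and ENSSSCG00000036231 is high in rpFSH 3 and rpFSH 5 and listed at the floor of 0.0001 in control 2.

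Outside the histone region, the pseudogene-class loci of highest level were ENSSSCG00000031657 and ENSSSCG00000031912. The first, at chr2:59531154-59532196, is described as JunD, a subunit of the AP-1 transcription factor, and is protein-coding in RefSeq. Its level was steady, 23.2 ± 4.14 FPKM (SD, n = 5) in the control group and 24.4 ± 6.20 FPKM in the rpFSH treatment group, with a log2 change of 0.10 ± 0.21 (SE, edgeR adjusted p = 0.999). The second, at chr6:153685397-153690051, has no description, held 25.05% of all pseudogene counts and ranged from 2.76 FPKM in control 1 to 31.8 FPKM in rpFSH 3. Its log2 change was 0.51 ± 0.51 (SE, edgeR adjusted p = 0.999).

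FOXL2, the forkhead factor that keeps granulosa cells from taking a testicular fate, is also typed as a pseudogene here and spans chr13:79691813-79709825. The locus holds 4 assembled transcripts over 18013 bp. The locus matched RefSeq by gene number only, not by overlap, and whether all its reads are of FOXL2 was not tested. It was at 2.69, 2.95, 0.543, 3.62 and 0.183 FPKM in control 1 to 5 and at 0.566, 4.39, 1.92, 0.396 and 2.63 FPKM in rpFSH 1 to 5. Both groups held gilts below 0.6 FPKM and gilts above 2.5 FPKM. The log2 change was 0.02 ± 0.84 (SE, edgeR adjusted p = 0.999). Over the 10 gilts its level had r = 0.19 with FSHR, the follicle-stimulating hormone receptor, and 0.40 with CYP19A1, the aromatase of granulosa cells. Both are in the granulosa list with FOXL2, in which 0 of 11 tested loci passed the limits, with a median log2 change of 0.04.

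The T cell receptor segments were near the limit of detection. Of the 63 TR_V_gene loci, 51 lie on chromosome 7, 10 on chromosome 18 and 2 on chromosome 9, and 14 were at 0 in every gilt. TRDV3, a delta chain segment at chr7:76551645-76551935, was the only one tested, with counts of 10, 31, 5, 23 and 7 in control 1 to 5 and 9, 6, 4, 8 and 14 in rpFSH 1 to 5. Its log2 change was -0.85 ± 0.64 (SE, edgeR adjusted p = 0.983). The TR_J_gene locus of highest level, ENSSSCG00000031641, had 0 to 16 counts.

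Among the 7 IG_V_gene loci, 3 of the 4 on chromosome 14 could be tested. All 3 overlap a protein-coding locus, 2 on the opposite strand and 1 on the same strand, and may hold some of its reads. ENSSSCG00000030775, at chr14:48800439-48800732, had 4.18 ± 2.02 FPKM (SD, n = 5) in the control group and 3.99 ± 3.20 FPKM in the rpFSH treatment group. Its values ran from 1.19 FPKM in rpFSH 1 to 9.38 FPKM in rpFSH 4, and the groups overlapped. The log2 changes of the 3 were -0.45 to 0.29, each with an edgeR adjusted p of 0.999. The summed B and plasma cell markers were 34.6 FPKM in control 2 and 8.61 to 13.1 FPKM in the other gilts, with an exact permutation p of 0.0238 between the groups, and 2 of 9 tested loci passed the limits downwards, against 2.37% of all loci. Neither the IG_V_gene loci nor the 9 T cell marker loci, of which 0 passed, had such a call.

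The 2 sRNA loci were RF01684 and RF02151, named by their Rfam family. RF01684, the family of the tRNA-like RNA cut from the nuclear transcripts MALAT1 and NEAT1, is here a 58 bp locus at chr2:6792038-6792095. Its counts were 17, 11, 19, 7 and 32 in control 1 to 5 and 44, 22, 16, 22 and 37 in rpFSH 1 to 5, a log2 change of 0.74 ± 0.50 (SE, edgeR adjusted p = 0.963). It lies inside a locus of the excluded miscellaneous class, at chr2:6782172-6811685 on the same strand. That host carries the Rfam family names RF01957, RF01956 and RF01955 and held 124271 to 375987 counts per gilt. That enclosing locus had a log2 change of 0.92 ± 0.24 (SE, edgeR unadjusted P = 0.00345, adjusted p = 0.853) and is below the fold limit. Reads of the nested locus cannot be told apart from those of its host, and a fragment of about 300 bp is longer than the locus.

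All 22 Mt_tRNA loci are listed at 0 in every gilt. So are the 13 protein-coding and 2 rRNA loci of the mitochondrial genome, which every cell uses, and nothing about mitochondrial tRNA can be read from these zeros. A further 25 pseudogenes were described as olfactory receptors, the odorant receptors of the nose. Of these, 1 could be tested, and their median level was 0.00396 FPKM. Members also lay on chromosome Y although gilts are female, and ENSSSCG00000037794, a lincRNA at chrY:7797524-7820118, had 9 to 136 counts per gilt. How reads came to be placed there was not tested.

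The question of the study was which transcripts differ in the ovary after rpFSH. No member had an adjusted p under 0.05 in edgeR, where the smallest was 0.853, and 0 of all 35720 tested loci, or 0%, did. At an unadjusted P under 0.05, 15 of 198 members, or 7.58%, passed, against 2025 of 35720 loci, or 5.67%. DESeq2 gave an adjusted p under 0.05 to 2 members, LDHB (0.0140) and CLDN3 (0.0307), and to 0.645% of all loci. By the study's limits, an unadjusted P under 0.05 and a log2 change above 1 or below -1, 11 of 198 members were DE, or 5.56%, against 3.42% of all loci. In the rpFSH treatment group 5 were upregulated and 6 downregulated, while 1.06% of all loci were upregulated and 2.37% downregulated. The 5 upregulated were 4 lincRNAs and 1 pseudogene, and the 6 downregulated were 4 lincRNAs and 2 pseudogenes. The median log2 change was -0.03 over tested lincRNAs and -0.13 over tested pseudogenes, and it was -0.00 over all loci.

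Sparse counts carried many of these calls. In an exact permutation of log2 (FPKM + 1) over the same gilts, 5 of the 11 had p under 0.05. That check used the values behind the calls and is not independent support for them. In 6 of the 11, 1 group had a mean count under 10, so the locus entered the test through the group where it was high. Of all 198 tested members, 27 entered in this way, and in 9 a single gilt held at least 50% of the normalized counts. The 2 loci called whichever gilt was left out were LDHB and CLDN3. The other 9 were called in 3 to 8 of the 10 fits that left out 1 gilt.

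**Figure D3:**
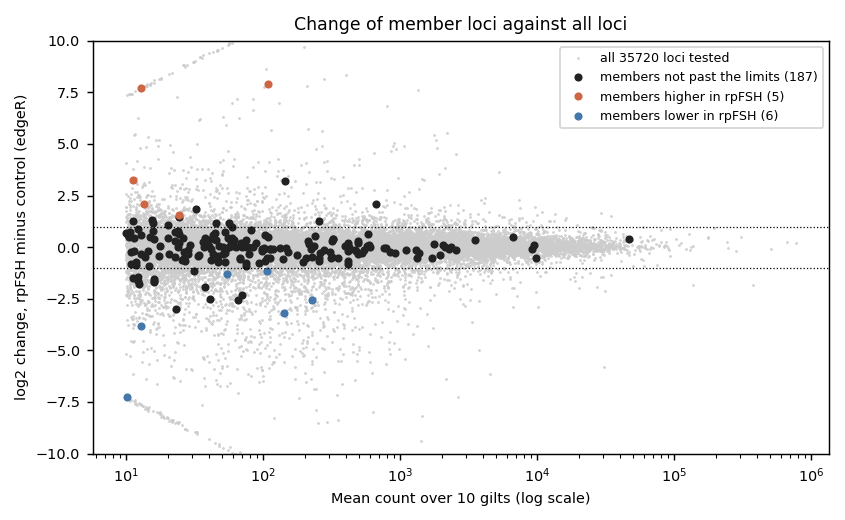
The edgeR log2 change, rpFSH minus control, against the mean count (log axis) for all 35720 tested loci (grey) and the 198 tested members (coloured by call), with dotted lines at changes of 1 and -1. Of the 11 called members, 9 have a mean count under 110, and the 2 called members with higher counts lie below -2.5.

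LDHB, in the pseudogene class at chr2:12988754-12990035, had the smallest P of the members. The coding LDHB gene makes the heart-type subunit of lactate dehydrogenase, which interconverts lactate and pyruvate. Counts of the pseudogene locus were 767, 547, 66, 469 and 104 in control 1 to 5 and 48, 42, 57, 87 and 96 in rpFSH 1 to 5. Controls 1, 2 and 4 were high, and controls 3 and 5 lay within or just above the range of the rpFSH treatment group. The log2 change was -2.54 ± 0.65 (SE, edgeR adjusted p = 0.853), and -2.69 without controls 2 and 5. An exact two-sided permutation of log2 (FPKM + 1) over the gilts, which 5 against 5 can bring down to p = 0.00794, gave p = 0.0317. RefSeq calls this position a pseudogene, although the number in its description is that of the intact gene. The protein-coding LDHB locus at chr5:51810967-51831490 is a separate row of the table. It had a mean count of 9843, and the mean count of the copy equalled 2.32% of that number. It had a log2 change of -0.09 ± 0.11 (SE, edgeR adjusted p = 0.999). How reads were divided between near-identical copies is not stated.

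The HNRNPK pseudogene ENSSSCG00000010221, a transcribed pseudogene in RefSeq, had a mean count of 413, which equalled 2.15% of the mean count of its separate coding locus. HNRNPK binds RNA and is a paraspeckle protein. The copy ranged only from 2.77 FPKM in rpFSH 2 to 4.74 FPKM in control 1 and had a log2 change of -0.17 ± 0.16 (SE, edgeR adjusted p = 0.999). That of the coding locus was -0.06 ± 0.14.

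CLDN3, claudin 3 of epithelial tight junctions, is protein-coding in RefSeq and lies at chr3:11018900-11020198. Its counts were 109, 373, 59, 18 and 734 in control 1 to 5 and 10, 11, 53, 31 and 30 in rpFSH 1 to 5. The 2 highest gilts were controls 5 and 2, those with the highest sums of ciliated epithelium markers, and the groups overlapped. The log2 change was -3.17 ± 0.95 (SE, edgeR adjusted p = 0.853, exact permutation p = 0.0476). Without controls 2 and 5 it was -1.20 and no longer passed the limits. In the ciliated list 14 of 17 tested loci passed the limits downwards, against 2.37% of all loci, with a median log2 change of -2.81. These loci carry the names of only 8 genes, so several are parts of 1 gene.

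The lincRNAs ENSSSCG00000034946 and ENSSSCG00000031633 were highest in the same pair of gilts. ENSSSCG00000034946, at chr1:2677005-2679627, had 28 counts in control 2, 73 in control 5 and 0 in the other 8. Against a limit of 3 counts over the rpFSH treatment group, its control level was at least 32.8-fold higher, carried by 2 gilts (exact permutation p = 0.444). ENSSSCG00000031633, at chr5:90560762-90566176, had 119 and 162 counts in these gilts and 18 to 56 in the others. Its log2 change was -1.29 ± 0.55 (SE, edgeR adjusted p = 0.860, exact permutation p = 0.143), and it was -0.23 without the pair. The part of epithelium in these calls was not tested. Among all tested lincRNAs, 18 of 145, or 12.4%, had controls 2 and 5 as their highest gilts, against 4.17% of pseudogenes, 9.44% of protein-coding loci and 6.64% of all loci.

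Only 1 tested member had groups that did not overlap. It was ENSSSCG00000034990, a lincRNA at chr13:131129559-131134676, 854 bp from HES1 on the opposite strand. HES1 is a repressor and a classic target of Notch signalling, which acts between oocyte and granulosa cells. The lincRNA had 1.13, 2.10, 1.17, 1.16 and 1.65 FPKM in control 1 to 5 and 0.541, 0.852, 0.339, 0.656 and 0.803 FPKM in rpFSH 1 to 5. The log2 change was -1.15 ± 0.32 (SE, edgeR adjusted p = 0.853, exact permutation p = 0.00794). Groups that do not overlap always give that permutation p, the smallest possible, so it adds nothing to the separation. Of all loci, 0.389% had every rpFSH gilt below every control gilt and 0.406% every one above. Without controls 2 and 5 the change was -0.78, short of the fold limit. HES1 itself had a log2 change of 0.21 ± 0.27 (SE, edgeR adjusted p = 0.999), and the r between them was -0.14.

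The last of the downregulated lincRNAs, ENSSSCG00000039306 at chr13:166979297-167254436, lies 36376 bp from EPHA3, an ephrin receptor gene. It had 0, 36, 43, 38 and 4 counts in control 1 to 5, and 8 counts in rpFSH 1 with 0 in the other 4 rpFSH gilts. The log2 change was -3.80 ± 1.54 (SE, edgeR adjusted p = 0.853, exact permutation p = 0.0873). A count of 0 in 1 control and low counts in another made the groups overlap.

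Among the 5 upregulated members was the lincRNA ENSSSCG00000039599, at chr6:41667087-41683432. It had 5, 0, 6, 12 and 3 counts in control 1 to 5 and 33, 15, 35, 17 and 8 in rpFSH 1 to 5. All but rpFSH 5 exceeded every control. The log2 change was 2.10 ± 0.83 (SE, edgeR adjusted p = 0.853, exact permutation p = 0.0159). Without controls 2 and 5 it was 1.54 and no longer passed the limits, and the call was also lost without control 5, rpFSH 1 or rpFSH 3. Its nearest protein-coding locus, TSHZ3, lies 316939 bp away.

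The pseudogene ENSSSCG00000024545, at chr2:8869598-8870979, had 0, 8, 0, 0 and 2 counts in control 1 to 5 and 5, 4, 8, 45 and 39 in rpFSH 1 to 5. The higher values were those of rpFSH 4 and rpFSH 5, and the log2 change was 3.27 ± 1.27 (SE, edgeR adjusted p = 0.853, exact permutation p = 0.0317). The lincRNA ENSSSCG00000040169, at chr15:133014490-133032001, had 4 to 28 counts in controls and 12 to 68 counts in rpFSH gilts. Its log2 change was 1.56 ± 0.70 (SE, edgeR adjusted p = 0.860, exact permutation p = 0.119), and rpFSH 1 and rpFSH 5 stood highest. Without controls 2 and 5 it was 1.16 and no longer passed the limits.

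The remaining upregulated lincRNAs rested on 1 or 2 gilts. ENSSSCG00000031192, a long noncoding RNA in RefSeq too, at chr5:43223310-43352875, had 1079 counts in rpFSH 4, 4 in control 4 and 0 in the other 8. Its fitted log2 change of 7.93 ± 2.85 (SE, edgeR adjusted p = 0.853, exact permutation p = 1.0) became -2.83 when rpFSH 4 was left out, and without controls 2 and 5 it was 7.27 and no longer passed the limits. ENSSSCG00000034257, at chr12:30975063-31085020, had 104 counts in rpFSH 1, 25 in rpFSH 4 and 0 in the other 8. Against a limit of 3 counts over the control group, it was at least 44.1-fold higher in the rpFSH treatment group (exact permutation p = 0.444). The call was lost without rpFSH 1, without rpFSH 4 and without controls 2 and 5 together. Luteal markers were also high in rpFSH 1 and rpFSH 4, and control 2, highest of all in luteal markers, had 0 counts of both lincRNAs. The part of luteal tissue in these counts was not tested.

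**Figure D4:**
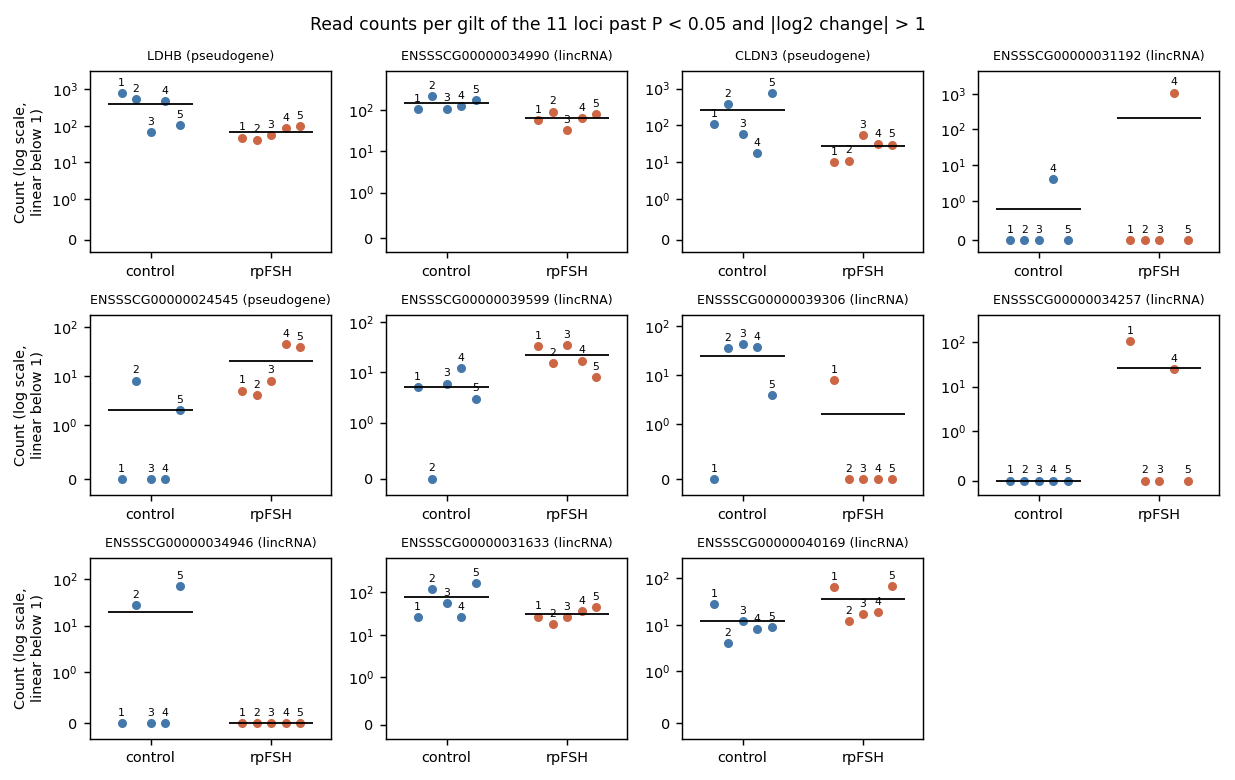
Read counts per gilt (log axis, linear below 1) of the 11 members past the study's limits, with points numbered by gilt and a line at the group mean. LDHB is high in controls 1, 2 and 4, CLDN3 and ENSSSCG00000034946 in controls 2 and 5, ENSSSCG00000031192 has 1079 counts in rpFSH 4 alone, and ENSSSCG00000034990 is the member whose groups do not overlap.

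A further 4 members had an unadjusted P under 0.05 with a change under the fold limit. The smallest P among them was that of ENSSSCG00000031801, at chrX:121776887-121794571 and protein-coding in RefSeq. It was at 0.378 to 0.623 FPKM in the control group and 0.229 to 0.386 FPKM in the rpFSH treatment group, a log2 change of -0.67 ± 0.20 (SE, edgeR adjusted p = 0.853, exact permutation p = 0.0159). ENSSSCG00000036524, which starts 94 bp from the small GTPase gene RAB18 on the opposite strand, had a log2 change of -0.52 (edgeR adjusted p = 0.853, exact permutation p = 0.0159). The others, ENSSSCG00000037652 and ENSSSCG00000014766, had log2 changes of 0.82 and -0.60.

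Of the tested members that carry a gene symbol, 2 of 10 passed the limits, LDHB and CLDN3, against 3.42% of all loci. None of the other 8 passed. SUMO4, a ubiquitin-like modifier, was at 2.23 ± 0.375 FPKM (SD, n = 5) in the control group and 2.59 ± 0.359 FPKM in the rpFSH treatment group, a log2 change of 0.25 ± 0.24 (SE). HPS6 and BLOC1S3, subunits of the complexes that build lysosome-related organelles, had log2 changes of -0.13 ± 0.21 and -0.34 ± 0.44 (SE). NAP1L5, an imprinted nucleosome assembly protein gene, had a log2 change of -0.10 ± 0.33 (SE) and NHLRC1, a ubiquitin ligase gene, one of 0.21 ± 0.51 (SE). BDKRB1, the inducible bradykinin receptor, was the most uneven, with 418 counts in control 5, 227 in rpFSH 5 and 2 to 47 in the other 8 gilts.

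None of the well-known lncRNA names fixed for the search, such as XIST, MALAT1, NEAT1, H19 and MEG3, was the symbol of a member, and 0 members overlapped the RefSeq position of MEG3. The search covered members only, not excluded classes such as the miscellaneous RNA locus around RF01684. It therefore does not show that these RNAs are missing from the ovary. Lists of genes that handle such RNAs were followed as well, beside the background of 3.42%. In nonsense-mediated decay, which destroys mRNAs and pseudogene transcripts with early stop codons, 0 of 15 tested loci passed the limits, with a median log2 change of 0.00. In the nuclear exosome and its adaptors, which degrade unstable noncoding RNA, 0 of 17 passed (median -0.02). Among paraspeckle proteins 1 of 9 loci passed, an unannotated locus carrying the name PSPC1, and among the partners of Xist 0 of 8. Of the recombination factors of antigen receptor genes 0 of 3 passed.

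The share of all counts that each type took did not differ between the groups beyond the spread of the gilts in any of 6 types compared. lincRNAs took 1443 ± 422 CPM (SD, n = 5) in controls and 1561 ± 479 CPM in rpFSH gilts (exact two-sided permutation p = 0.698, adjusted over 6 types p = 0.802). The lowest share was 905 CPM in control 2 and the highest 2305 in rpFSH 3, the gilt in which the miR-125b-2 locus was highest. Without that locus the difference of 118 CPM became -54.4 CPM. Pseudogenes took 383 ± 26.8 and 370.3 ± 71.0 CPM (exact permutation p = 0.730). The TR_V_gene loci took 1.24 ± 0.575 and 0.768 ± 0.197 CPM (exact permutation p = 0.127, adjusted p = 0.452), and the 3 highest values were those of controls 2, 5 and 1. The IG_V_gene loci took 8.22 ± 1.26 and 9.23 ± 4.20 CPM (exact permutation p = 0.802), the TR_J_gene loci 0.138 ± 0.0928 and 0.157 ± 0.0295 CPM (exact permutation p = 0.651), and the sRNA loci 0.273 ± 0.119 and 0.422 ± 0.159 CPM (exact permutation p = 0.151).

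**Figure D5:**
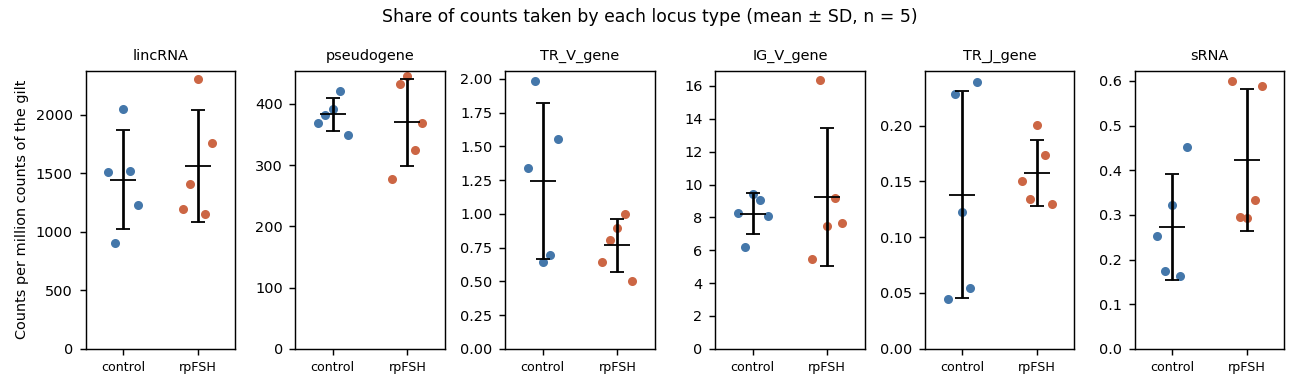
CPM, counts scaled to 1000000 counts of the gilt, taken by each of 6 locus types, with 1 point per gilt and bars at the mean ± SD of 5 gilts. The groups overlap in every type, and the lincRNA share runs from 905 in control 2 to 2305 in rpFSH 3.

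The number of members detected also overlapped between the groups. With more than 3 counts, 241, 234, 241, 241 and 249 members were detected in control 1 to 5 and 220, 235, 221, 244 and 232 in rpFSH 1 to 5. The means were 241.2 ± 5.31 and 230.4 ± 10.1 (SD, n = 5), a difference of -10.8 (exact two-sided permutation p = 0.0952).

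The spread of members among gilts was set beside that of protein-coding loci of similar count. The median biological coefficient of variation, the spread between gilts of a group beyond counting error, was 0.727 for 91 lincRNAs, 0.678 for 23 pseudogenes and 0.706 for protein-coding loci with a mean count of 10 to 100. Between 100 and 1000 counts it was 0.433, 0.601 and 0.411. Above 1000 counts it was 0.465 for 9 lincRNAs and 0.411 for 9 pseudogenes, against 0.292 for protein-coding loci. The values are edgeR estimates drawn toward a trend over all tested loci, so sets of like count are partly alike by construction. The range above 1000 counts has no upper limit, so counts there may differ between the sets. These medians over loci are descriptions and carry no test.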

How the data were processed

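The deposited table gives a FPKM value and a read count for each locus and gilt. According to the methods and the submitters' processing notes, the authors mapped reads to Sscrofa11.1 (HISAT2 2.0, Bowtie 0.12.2), assembled them with StringTie 1.3.0 and estimated FPKM with StringTie and Ballgown, and floored FPKM at 0.0001. How the deposited counts were made is not given in the sources used here. The labels describe poly(A) selection, the methods rRNA removal.

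Members were selected by the type column. Members and lists were chosen with earlier results of these data known. Lists counted every locus that carries a listed name, so 1 gene could count more than once. Counts were compared with edgeR 4.0.16 (TMM, robust quasi-likelihood test) over all 35720 loci with a mean count of at least 10, adjusted by the Benjamini-Hochberg method, in place of Ballgown. SE was the log2 change divided by the square root of F. Per-gilt values were compared by exact permutation over 252 assignments, for single called loci a check added after the data were seen. Alternatives used DESeq2 1.42.0, limma 3.58.1 on log2 (FPKM + 1) and log2 (FPKM + 0.1), other factors, filters and left-out gilts, and the scripts were tested on simulated data. Work was done in R 4.3.3 and Python 3.11.15 (scipy 1.17.1).

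Each gilt was 1 library. Between libraries of a group, 66.9% to 86.0% of loci differed by more than 2 counting errors, so no library was counted as a duplicate. Intervals and limits from counts cover counting error only. Named by rule were the 3 loci of highest mean FPKM per type with at least 10 members (1 in smaller types), the called members, and known lncRNA names, with their nearest protein-coding locus. Symbols of tested members and other loci were added after their values were seen. RefSeq entries were matched by NCBI gene number for 57 members and by position for 201. No genome sequence was used here, so no sequence is shown.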

Additional observations from a re-analysis of the deposited data

Results flagged for a closer look

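Among 52 groups of 5 gilts examined, those of the members named by rule and of the type shares, 5 had a gilt whose gap to the next, as a share of the group's range, exceeded Dixon's critical value of 0.71. Chance gives about 1 in 20 such groups where values are normally distributed. A group with reads in 1 gilt only always has a ratio of 1.0, so that rate does not apply to sparse counts. ENSSSCG00000031192 had 1079 counts in rpFSH 4 and 0 in the other rpFSH gilts, a ratio of 1.0, and 4 counts in control 4 with 0 in the other controls, also 1.0. ENSSSCG00000039306 had 8 counts in rpFSH 1 and 0 in the others (1.0). ENSSSCG00000034257 had 104 counts in rpFSH 1, with 25 in the next gilt, a ratio of 0.759. ENSSSCG00000024545 had 8 counts in control 2 and 2 at most in the other controls, a ratio of 0.776.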

How the results depend on the processing

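By the study's limits, 11 members were called, or 5.56% of those tested, against 3.42% of all loci. The count was 17 with DESeq2 (8.59% against 3.9%) and 19 without a filter on counts (4.66% against 3.76%). With at least 10 counts in at least 5 gilts it was 7 (3.85% against 2.7%). With a mean count of at least 100 it was 4 (4.94% against 2.45%). With limma it was 7 on log2 (FPKM + 0.1), 3.54% against 2.13%, and 4 on log2 (FPKM + 1), 2.02% against 1.8%. DESeq2 kept 10 of the 11, and limma on log2 (FPKM + 1) kept 4. Leaving out each gilt in turn gave 7 to 15 calls, or 3.54% to 7.58% of tested members, against 2.87% to 3.96% of all loci. Without controls 2 and 5 together, chosen after seeing the data, 9 members, or 4.55%, were called, against 2.93% of all loci. Of the 9, 3 were among the 11. Members with an adjusted p under 0.05 numbered 2 with DESeq2 and 0 in every other setting. The replicate numbers did not pair the gilts (same-numbered r of -0.214 to 0.019, and no gilt correlated best with its own number). With the replicate block 8 members, or 4.04%, were called, against 2.04% of all loci. Of the 8, 7 were among the 11, and none had an adjusted p under 0.05.

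Without the most counted member, the differences in share of the lincRNA, IG_V_gene and sRNA types turned to -54.4, -0.188 and -0.00675 CPM. Leaving out 1 gilt gave ranges of -67.9 to 269.6 for lincRNA, -31.6 to 10.4 for pseudogene, -0.626 to -0.290 for TR_V_gene, -0.777 to 1.95 for IG_V_gene and -0.00373 to 0.045 for TR_J_gene. None had a p adjusted over 6 types under 0.05, while the exact permutation p of TR_V_gene before adjustment was 0.0476 without control 3, the only one under 0.05 among those of TR_V_gene. BDKRB1, with a log2 change of -0.32, ranged from -1.58 to 2.85 when 1 gilt was left out (2.85 without control 5) and was 2.80 without controls 2 and 5, and ENSSSCG00000031192 to -2.83 without rpFSH 4. For ENSSSCG00000034946 no value was had without controls 2 and 5, since all gilts left were at 0. Of 558 values for named members under the alternatives, 72 lost their call, 8 moved by over 1 SE and 3 reversed. The causes were not tested. Depth limits what can be said, since 321 of the 519 members had a mean count under 10 and were not tested.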
